A study of Mus musculus with 6 samples.

Results

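The sulfated glycosaminoglycan chains of cartilage are assembled by a set of 49 enzymes and transporters, which make chondroitin and dermatan sulfate, make heparan sulfate, or supply both with sugars and sulfate. The set was chosen by function as a list of symbols, with earlier results of these data known. All 49 genes were found among the 22032 genes of the mouse expression matrix. They comprise 6 linker genes, 6 genes of chondroitin polymerisation, 10 genes of chondroitin and dermatan sulfation and epimerisation, 8 supply genes, 5 genes of heparan polymerisation, 12 genes of heparan modification and 2 heparan endosulfatases.

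RNA-seq was performed on 6 samples of mouse cartilage chondrocytes, 3 from embryos at E16.5 and 3 from animals at 2 months of age. The labels write the embryonic stage as 16.5 wks, and the embryonic day named in the study's own description is used here. Cells at both stages were sorted for the bone morphogenetic protein receptor BMPR1B and against alkaline phosphatase (ALP) and blood and endothelial markers, with CD31, CD45 and Ter119 named for the adult cells. The adult animals were male B6 mice, with no further allele or treatment named, while the strain and sex of the embryos and the number of animals per sample are not stated. Stage therefore differs together with whatever else separated the collections, and p-values measure only the spread between these samples.

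A sulfated chain begins with a short linker, xylose followed by galactose residues and glucuronic acid, which is built on a serine of a core protein. The first hexosamine added to that linker sets the type of chain, since N-acetylgalactosamine leads to chondroitin and N-acetylglucosamine to heparan. Sulfotransferases and epimerases then modify the growing chain in the Golgi, and endosulfatases trim heparan sulfate outside the cell. In cartilage, chondroitin sulfate on aggrecan holds the water that resists compression, and heparan sulfate binds growth factors such as FGFs, BMPs and hedgehog proteins.

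Values are TPM, an estimate of transcript number that is scaled per sample. They are corrected for transcript length and add up to the same total in each sample. Since a level is a share of all transcripts, fewer cells of a type and less RNA per cell cannot be told apart, and sequencing depth cannot be read from these values. Differences between stages are adult minus embryonic on the log2(TPM + 1) scale, which understates changes of low genes, with a standard error (SE) and an adjusted p from limma over the 13125 genes whose mean across the samples reached 1 TPM. A gene was called where that adjusted p was under 0.05. Samples are named in the order embryonic 1, 2 and 3 and adult 1, 2 and 3.

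All 12 chondrocyte markers examined were detected at both stages, although their summed level was lower in the adult samples, at 10260 to 13522 TPM against 28168 to 30005 TPM. *Col2a1* was the largest part of the sum in each sample. In the adult samples 8 of the markers were called lower and 2 higher (*Sox9* and *Comp*), while *Acan* and *Snorc* did not pass. *Matn3* was at 181 to 234 TPM in embryonic and only 1.11 to 3.65 TPM in adult samples. The summed level of 6 hypertrophy markers was 74.5 to 125 TPM in the embryonic samples and 1008 to 1379 TPM in the adult samples. Most of the adult sum was *Col10a1* (814 to 1096 TPM) and *Mmp13* (143 to 226 TPM), while *Panx3* was called lower (log2 fold change -2.46, limma adjusted p = 0.0036), *Runx2* did not pass (-0.72, adjusted p = 0.0659) and *Ihh* was listed at 0 in all adult samples. *Alpl*, which encodes the ALP sorted against, was at 14.4 to 17.9 TPM in embryonic and 32.7 to 38.6 TPM in adult samples (log2 fold change 1.13, limma adjusted p = 0.00292). Leukocyte markers (9 genes) summed to 5.67 to 13.7 TPM in the embryonic samples and to 189, 19.6 and 114 TPM in the adult samples, with *S100a8* and *S100a9* at 0 in all embryonic samples and in adult 2. Tendon and fibroblast markers (7 genes) summed to 812 to 979 TPM in the embryonic and 269 to 356 TPM in the adult samples. Of them 5 were called lower in the adult samples, and *Mkx* and *Pdgfra* did not pass. *Pdgfra* was the largest part of the adult sum (145 to 258 TPM), with *Tnmd* at 0 to 2.11 TPM and *Scx* at 0 to 4.59 TPM there. The 8 osteoblast markers summed to 5628 to 6557 TPM in the embryonic and 2898 to 5461 TPM in the adult samples, with *Bglap* and *Bglap2* at 0 in all embryonic samples. Of the osteoblast markers 4 were called higher in the adult samples, *Ibsp* and *Spp1* among them, and 2 were called lower. One of the lower genes, *Col1a1*, made up most of the embryonic sum, at 4862 to 5971 TPM against 170 to 637 TPM in the adult samples. Muscle markers (8 genes) summed to 66.8 to 71.8 TPM in the embryonic and 1.99 to 14.5 TPM in the adult samples. Most of the embryonic muscle sum was *Des*, at 46.0 to 50.6 TPM. Erythroid markers (7 genes) summed to 257 TPM in embryonic 1 and 7.77 to 47.5 TPM in the other samples, endothelial markers (6 genes) to 33.3 TPM at most and skin markers (5 genes) to 2.44 TPM at most. The part of these cells in the differences described next was not tested.

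Of the 49 genes, 45 passed the filter on low values, while *Chst13*, *Ndst3*, *Ndst4* and *Hs6st3* did not. Among the 45 genes, 24 (53.3%) were called, 10 higher and 14 lower in the adult samples, beside 45.3% of all genes tested (23.9% higher and 21.4% lower). The stage ranges did not overlap in 30 of the 45 genes (66.7%), 15 in each direction, beside 56.5% of all genes. The median log2 fold change of the 45 genes was -0.15, beside 0.16 for all genes tested, and its sign depended on the filter and on single samples. Scaling by the median of ratios moved the median of all genes to 0.03, and neither this nor the other rescalings turned the direction of any of the 45 genes. Summed over all 49 genes, the level was 2978, 2889 and 2956 TPM in the embryonic samples and 2652, 2954 and 2666 TPM in the adult samples, so that these ranges overlapped.

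**Figure D1:**
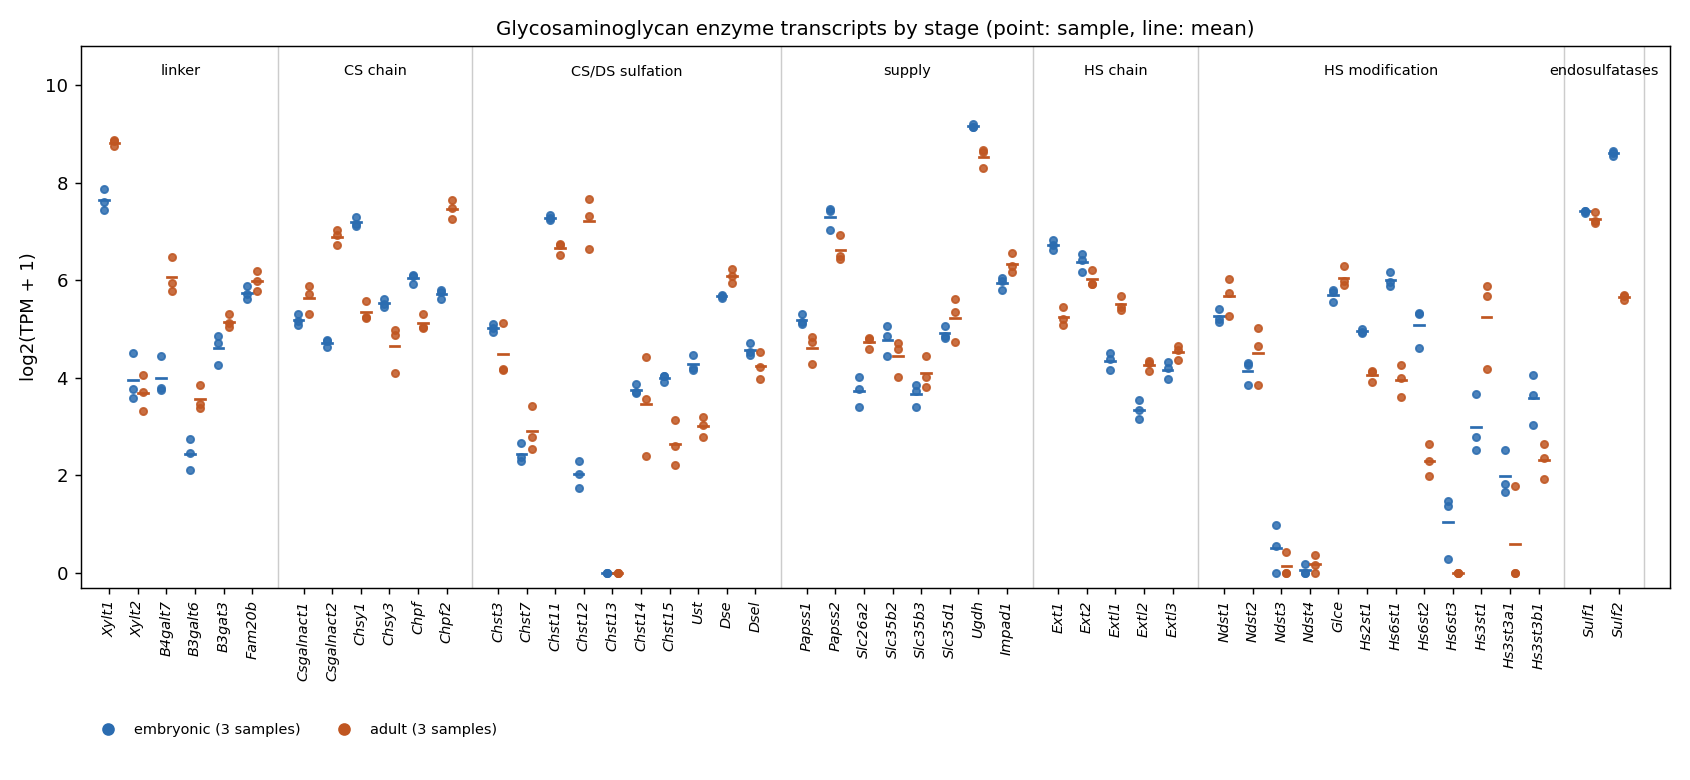
Level of each of the 49 genes in each sample as log2(TPM + 1), grouped by role, with 3 embryonic samples in blue, 3 adult samples in orange and a short line at each stage mean. *Chst12* moved from 2.02 to 7.20 on this scale and *Sulf2* from 8.60 to 5.65, while *Sulf1* had means of 7.41 and 7.26.

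**Figure D2:**
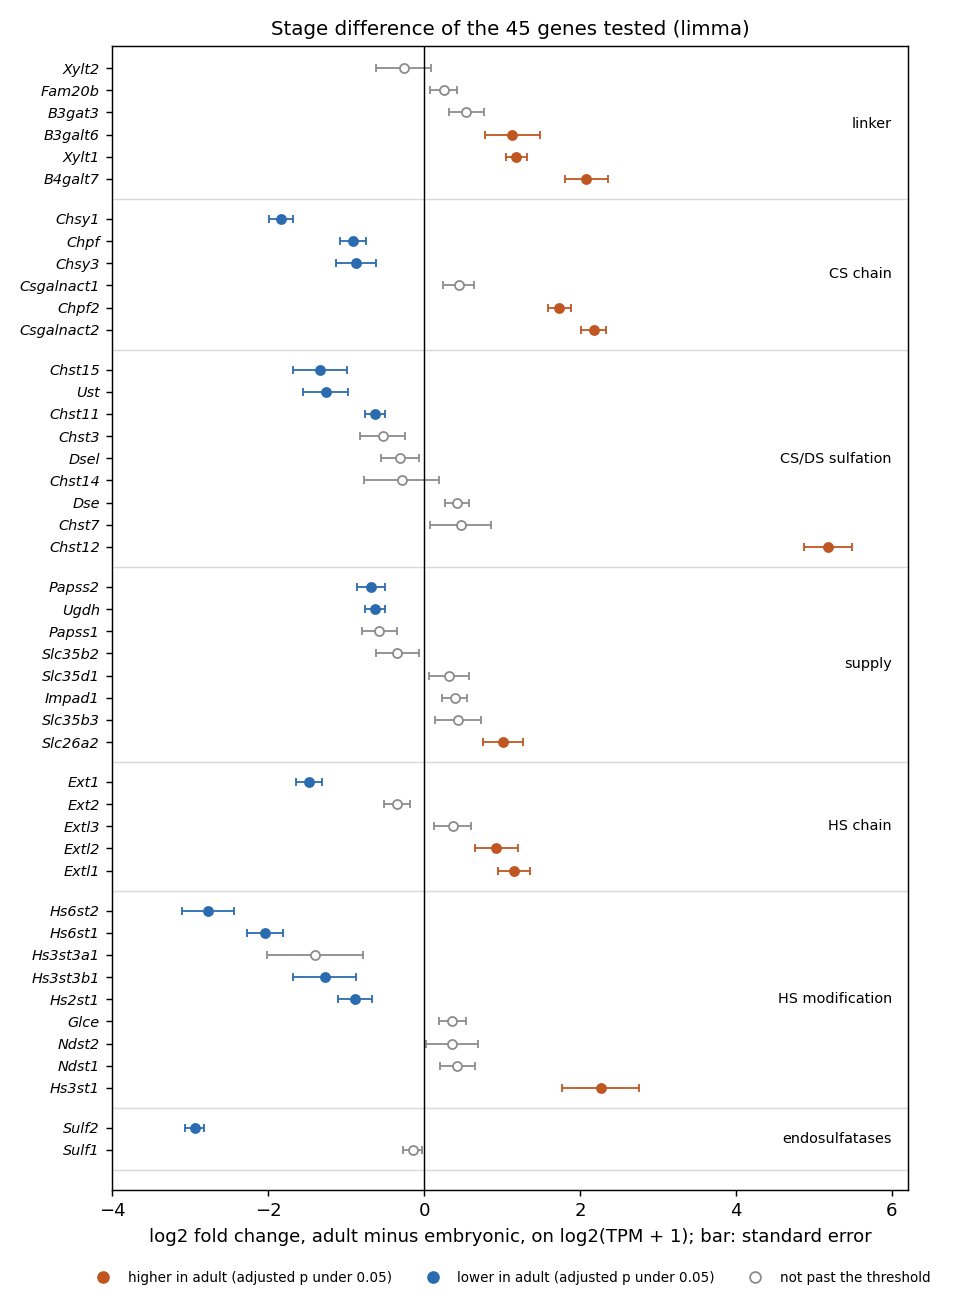
Difference between stages for the 45 genes tested, as the log2 fold change of log2(TPM + 1), adult minus embryonic, with bars of 1 standard error, within each role from lowest to highest. Filled points had a limma adjusted p under 0.05, orange for 10 genes higher and blue for 14 genes lower in the adult samples, and open points did not pass.

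In the linker region 3 of 6 genes were called higher in the adult samples and 0 lower, and these 50% lay near the 45.3% of all genes called. The summed level of the 6 genes was 311 ± 26.3 TPM (SD, n = 3) at E16.5 and 640 ± 44.7 TPM in the adult, with *Xylt1* as the largest part. *Xylt1* encodes the xylosyltransferase that starts the chain on the core protein. Its level was 194, 232 and 173 TPM at E16.5 and 467, 460.1 and 428 TPM in the adult. All adult values lay above all embryonic values (log2 fold change 1.18, SE 0.136, limma adjusted p = 0.000212). Its paralog *Xylt2* had 11.04, 12.5 and 21.8 TPM and then 15.7, 11.99 and 8.91 TPM. These ranges overlapped, with a difference of -0.26 (adjusted p = 0.565) that had the opposite sign (0.02) without embryonic 3. Consequently *Xylt1* exceeded *Xylt2* by 7.61 to 17.2 times in the embryonic and by 27.9 to 43.3 times in the adult samples, comparing TPM + 1.

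*B4galt7*, which adds the first galactose to xylose, showed the largest difference of the linker genes. Its levels were 20.7, 12.9 and 12.4 TPM at E16.5 and 54.1, 88.5 and 60.6 TPM in the adult, without overlap (log2 fold change 2.08, SE 0.273, limma adjusted p = 0.000416). *B3galt6* adds the next galactose and was the lowest of the linker genes, at 4.46, 3.32 and 5.66 TPM in embryonic and 9.36, 13.3 and 10.1 TPM in adult samples. It passed the threshold (log2 fold change 1.13, SE 0.355, adjusted p = 0.0297) but did not without embryonic 1, embryonic 2 or adult 2, where the adjusted p was 0.0739 to 0.0939. *Fam20b*, the kinase that phosphorylates the linker xylose, had 58.2, 47.99 and 51.2 TPM and 61.9, 72.1 and 54.2 TPM, a difference of 0.25 that did not pass (adjusted p = 0.267). The same held for *B3gat3*, which adds the glucuronic acid that completes the linker (18.3 to 28.0 TPM against 31.9 to 38.3 TPM, log2 fold change 0.54, adjusted p = 0.0816), although its ranges did not overlap.

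The enzymes that elongate chondroitin were divided between the stages. Among 6 genes *Csgalnact2* and *Chpf2* were higher in the adult samples, *Chsy1*, *Chsy3* and *Chpf* were lower, and *Csgalnact1* did not pass. The 5 called genes were 83.3% of the 6, beside 45.3% of all genes tested. *Csgalnact1* and *Csgalnact2* encode the transferases that place the first N-acetylgalactosamine on the linker. *Csgalnact2* had 25.9, 23.6 and 26.4 TPM in embryonic and 129, 121 and 104 TPM in adult samples. All adult values lay above all embryonic values, and the means differed by 4.67 times (log2 fold change 2.18, SE 0.161, limma adjusted p = 1.98e-05). *Csgalnact1* was found at 38.7, 32.97 and 34.9 TPM and 51.4, 57.7 and 38.4 TPM, with a difference of 0.44 (adjusted p = 0.105) that passed without adult 3 (adjusted p = 0.0301). The share of *Csgalnact2* in the summed level of both transferases was thus 41.6% ± 1.48 (SD, n = 3) at E16.5 and 70.8% ± 2.72 in the adult, while the sum itself went from 60.9 ± 4.03 TPM to 167 ± 21.7 TPM.

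*Chsy1* and *Chsy3* are synthases that add both sugars of the repeating unit, and *Chpf* and *Chpf2* encode the factors with which they form active polymerases. *Chsy1* was the most abundant of this group at E16.5, with 141, 136 and 156 TPM, and had 36.9, 36.3 and 46.8 TPM in the adult samples. No adult value reached the embryonic range (log2 fold change -1.84, SE 0.158, limma adjusted p = 4.41e-05). *Chsy3* also fell, from 47.8, 44.5 and 42.98 TPM to 28.4, 30.7 and 16.1 TPM (log2 fold change -0.87, SE 0.259, adjusted p = 0.0234), with adult 3 the lowest. That call was lost when any one embryonic sample was left out (adjusted p 0.0616 to 0.0804).

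The polymerizing factors moved in opposite directions. *Chpf* was present at 67.8, 66.7 and 59.97 TPM and then at 31.7, 38.4 and 31.97 TPM, with all adult samples below all embryonic samples (log2 fold change -0.91, SE 0.168, limma adjusted p = 0.00254). *Chpf2* had 52.95, 48.3 and 54.7 TPM in embryonic and 152, 197 and 178 TPM in adult samples, again without overlap (log2 fold change 1.73, SE 0.149, adjusted p = 4.39e-05). In the annotation, 44.1% of the exonic bases of *Chpf2* are also covered by *Smarcd3* on the opposite strand. The cDNA kit named in the methods does not mark strand, so reads of these genes may be exchanged between them. The labels name another kit, so this limit is not settled. *Smarcd3* itself was at 32.2, 32.3 and 22.3 TPM in embryonic and 17.3, 23.9 and 36.8 TPM in adult samples, with no called difference (log2 fold change -0.19, adjusted p = 0.625). Within the 4 genes the share of *Chpf2* went from 16.95% ± 0.564 (SD, n = 3) to 63.8% ± 2.41, and that of *Chsy1* from 47.2% ± 2.29 to 14.6% ± 2.57, while their sum was 307 ± 9.55 TPM and 275 ± 27.0 TPM.

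*Chst12* showed the largest log2 fold change of all 45 genes, within a group of modifying enzymes that was otherwise lower or not called. Of 9 sulfation and epimerisation genes tested, *Chst12* was higher in the adult samples, *Chst11*, *Chst15* and *Ust* were lower, and *Chst3*, *Chst7*, *Chst14*, *Dse* and *Dsel* did not pass. The 4 called genes (44.4%) lay near the 45.3% of all genes tested. *Chst11*, *Chst12* and *Chst13* encode sulfotransferases for position 4 of N-acetylgalactosamine. *Chst12* had 2.36, 3.92 and 3.06 TPM at E16.5 and 157, 203 and 98.2 TPM in the adult. The means, 3.11 and 153 TPM, differed by 49.03 times (log2 fold change 5.18, SE 0.306, limma adjusted p = 5.69e-06), and this rise ranked 40 among the 13125 genes tested. No transcript of another gene shared sequence with *Chst12* with an identity of 95% along 5% or more of its length, and no annotated exon of another gene overlapped its exons.

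*Chst11*, whose loss in mice disturbs the growth plate, had 149.5, 161 and 153 TPM at E16.5 and 90.5, 105 and 104 TPM in the adult. It fell in every adult sample below the embryonic range, by a smaller step (log2 fold change -0.63, SE 0.128, limma adjusted p = 0.00438). *Chst13* was listed at 0 in all 6 samples. *Chst11* therefore made up 98.0% ± 0.414 (SD, n = 3) of the summed level of *Chst11*, *Chst12* and *Chst13* in the embryonic samples and 40.7% ± 9.32 in the adult samples, with *Chst12* providing the rest. The sum was 152, 165 and 156 TPM at E16.5 and 248, 308 and 202 TPM in the adult, without overlap. *Chst14*, for position 4 in dermatan, was not counted in this sum. Its level was 11.9 to 13.6 TPM in embryonic and 4.25 to 20.4 TPM in adult samples.

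For 4 genes the stretch of the genome before the annotated gene start is printed here, to show their promoters. *Chst12* had the largest rise on the log2 scale and *Sulf2* the largest fall, and *Chst11* shares its step with *Chst12*. *Csgalnact2* also rose (log2 fold change 2.18), though less than *Hs3st1* (2.26), whose promoter is not printed. In GENCODE M21 on GRCm38, *Chst12* spans chr5:140505550-140525724, *Chst11* chr10:82985498-83195900, *Csgalnact2* chr6:118107452-118139140 and *Sulf2* chr2:166073089-166155663. Sequences are from the RefSeq promoter table of build GRCm38, on the strand of the gene, cut to the bases upstream of the GENCODE M21 gene start. Capitals mark the GC box letters GGGCGG on either strand, as well as CCAAT boxes and the TATA box letters TATAAA. The core letters bound by SOX proteins, ACAAAG, were also sought on both strands and none lay in these 4 windows. No motif overlapped another.
Chst12, chr5:140505359-140505549, plus strand: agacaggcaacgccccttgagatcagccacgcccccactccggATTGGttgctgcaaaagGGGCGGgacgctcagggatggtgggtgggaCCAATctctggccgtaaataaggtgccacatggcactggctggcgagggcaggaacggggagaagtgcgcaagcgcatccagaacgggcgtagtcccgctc
Chst11, chr10:82985247-82985496, plus strand: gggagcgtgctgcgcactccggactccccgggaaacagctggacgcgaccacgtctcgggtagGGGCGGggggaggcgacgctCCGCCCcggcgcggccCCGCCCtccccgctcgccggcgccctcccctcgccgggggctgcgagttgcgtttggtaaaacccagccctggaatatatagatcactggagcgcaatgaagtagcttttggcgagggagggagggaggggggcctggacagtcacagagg
Csgalnact2, chr6:118139141-118139390, minus strand: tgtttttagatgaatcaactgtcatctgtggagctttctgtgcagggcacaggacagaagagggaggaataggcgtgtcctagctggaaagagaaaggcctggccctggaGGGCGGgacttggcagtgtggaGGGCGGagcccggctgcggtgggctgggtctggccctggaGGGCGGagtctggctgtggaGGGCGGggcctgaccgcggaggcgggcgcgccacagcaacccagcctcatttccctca
Sulf2, chr2:166155684-166155933, minus strand: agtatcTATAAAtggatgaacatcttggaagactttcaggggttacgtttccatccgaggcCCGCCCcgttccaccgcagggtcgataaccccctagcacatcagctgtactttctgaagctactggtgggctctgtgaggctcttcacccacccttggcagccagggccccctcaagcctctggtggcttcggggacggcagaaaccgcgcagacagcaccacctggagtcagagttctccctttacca

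The *Chst12* window held 1 GC box and 2 CCAAT boxes at 63.4% GC, and the *Chst11* window 3 GC boxes at 70.0% GC. *Csgalnact2* had 4 GC boxes, and *Sulf2* 1 GC box and 1 TATA box. In full windows of 300 bases, a GC box was present in 28 of the 39 promoters of these enzymes that the table holds (71.8%) and in 35.9% of all 27025 promoters, a CCAAT box in 17 (43.6%) and 37.9%, a TATA box in 3 (7.69%) and 14.2%, and the SOX core letters in 1 (2.56%) and 18.7%. These are matches of letters only, and no binding was measured. The table lacks *Xylt1*, *Csgalnact1*, *Chsy3*, *Slc26a2*, *Impad1*, *Ext1*, *Extl3*, *Ndst1*, *Ndst4* and *Sulf1*.

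Sulfation at position 6 of chondroitin is carried out by the products of *Chst3* and *Chst7*. *Chst3* had 31.6, 29.5 and 33.4 TPM in embryonic and 17.02, 33.7 and 16.98 TPM in adult samples. Adult 2 lay above the embryonic range and the other adult samples below it, and the difference of -0.54 did not pass (limma adjusted p = 0.161), though it did without adult 2 (adjusted p = 0.0225). *Chst7* was less abundant, at 5.32, 4.21 and 3.90 TPM and 9.76, 4.78 and 5.87 TPM (log2 fold change 0.47, adjusted p = 0.358). Counting neither *Chst14* nor *Chst15*, the summed level of *Chst11*, *Chst12* and *Chst13* exceeded that of *Chst3* and *Chst7*. It did so by 4.03, 4.77 and 4.10 times in the embryonic samples and by 8.95, 7.82 and 8.51 times in the adult samples, comparing TPM + 1. This ratio did not overlap between stages (log2 difference 0.97, exact permutation p = 0.1, the smallest that 3 against 3 samples allow).

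Further sulfates are added to chondroitin and dermatan by the products of *Chst15* and *Ust*. *Chst15*, which adds a further sulfate to residues already sulfated at position 4, had 14.01, 15.3 and 15.3 TPM in embryonic samples and 5.07, 3.65 and 7.73 TPM in adult samples, without overlap (log2 fold change -1.34, SE 0.346, limma adjusted p = 0.0128). The predicted gene *Gm10584* on the opposite strand covers 17.9% of its exonic bases. *Ust*, the sulfotransferase for position 2 of the uronic acid, fell from 21.05, 16.9 and 17.4 TPM to 8.22, 5.93 and 7.19 TPM (log2 fold change -1.27, SE 0.289, adjusted p = 0.0073).

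Dermatan sulfate arises where an epimerase turns glucuronic into iduronic acid. The epimerase gene *Dse* was at 49.01, 50.01 and 50.9 TPM and 74.2, 67.1 and 60.5 TPM. Its ranges did not overlap and its difference of 0.42 (SE 0.154) lay at the threshold (limma adjusted p = 0.0536, and adjusted p = 0.0363 without adult 3). The related *Dsel* was at 20.9, 22.1 and 25.03 TPM and 14.8, 17.7 and 22.1 TPM, with overlap (log2 fold change -0.32, adjusted p = 0.319), so that *Dse* exceeded *Dsel* by 2.00 to 2.28 times in embryonic and 2.66 to 4.76 times in adult samples, comparing TPM + 1. *Chst14*, which sulfates position 4 in dermatan, ranged from 11.9 to 13.6 TPM in embryonic and from 4.25 to 20.4 TPM in adult samples. Its difference of -0.29 (adjusted p = 0.645) turned to 0.24 without adult 3.

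Supply genes serve chondroitin and heparan sulfate alike, and *Ugdh* also feeds hyaluronan. Among 8 of them *Slc26a2* was higher and *Papss2* and *Ugdh* were lower in the adult samples, and the summed level of all 8 was 859 to 943 TPM in embryonic and 580 to 736 TPM in adult samples. The 3 called genes (37.5%) did not exceed the 45.3% of all genes tested. *Ugdh* encodes the dehydrogenase that makes UDP-glucuronic acid and had the highest mean of the 49 genes over all samples, although *Xylt1* exceeded it in each adult sample. It was at 565, 563 and 589 TPM in embryonic and 315, 392 and 403 TPM in adult samples. All adult values were lower (log2 fold change -0.64, SE 0.129, limma adjusted p = 0.00402). *Papss2*, a synthase of the sulfate donor PAPS whose loss shortens the limbs of mice, was at 174, 129.6 and 169.7 TPM and 89.01, 120.5 and 85.2 TPM. Each adult value was again below the embryonic range (log2 fold change -0.68, SE 0.182, adjusted p = 0.015), but the call was lost without embryonic 1 or embryonic 3 (adjusted p 0.0618 to 0.0642).

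*Slc26a2*, the sulfate transporter mutated in diastrophic dysplasia, went the other way. It was measured at 9.62, 12.5 and 15.1 TPM in embryonic and 23.2, 26.9 and 26.97 TPM in adult samples, without overlap (log2 fold change 1.01, SE 0.259, limma adjusted p = 0.0124). The transporters that carry PAPS into the Golgi, *Slc35b2* and *Slc35b3*, did not pass. *Slc35b2* had 20.7, 27.8 and 32.3 TPM and 23.01, 15.2 and 25.1 TPM (log2 fold change -0.35, adjusted p = 0.333). *Slc35b3* was at 13.4, 9.55 and 12.3 TPM and 15.3, 12.9 and 20.9 TPM (log2 fold change 0.43, adjusted p = 0.265). Of the other supply genes, the second PAPS synthase *Papss1* was at 33.2 to 38.6 TPM and 18.3 to 27.4 TPM (adjusted p = 0.0618), the nucleotide sugar transporter *Slc35d1* at 27.2 to 32.6 TPM in embryonic and 25.7 to 47.9 TPM in adult samples (adjusted p = 0.331), and the phosphatase *Impad1*, which clears the by-product of sulfation from the Golgi, at 54.8 to 65.3 TPM in embryonic and 70.6 to 93.2 TPM in adult samples (adjusted p = 0.0818). *Papss2* held 81.5% ± 1.79 (SD, n = 3) of the summed PAPS synthase level in embryonic and 80.5% ± 3.08 in adult samples.

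Heparan polymerisation showed 1 lower and 2 higher genes out of 5 (60% called, beside 45.3% of all genes tested). *Ext1* and *Ext2* encode the subunits of the heparan copolymerase, and loss of either gene causes cartilage-capped bone tumours in people. *Ext1* had 104, 97.4 and 113 TPM in embryonic and 42.9, 36.1 and 32.7 TPM in adult samples. No adult value reached the lowest embryonic one (log2 fold change -1.48, SE 0.164, limma adjusted p = 0.000172). *Ext2* was at 84.2, 70.8 and 91.5 TPM and 72.95, 59.8 and 59.3 TPM, with overlapping ranges and a difference of -0.35 that did not pass (adjusted p = 0.111). *Ext1* exceeded *Ext2* by 1.23 to 1.37 times in the embryonic samples and stood at 0.559 to 0.610 of it in the adult samples, comparing TPM + 1.

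The exostosin-like genes were higher or not called. *Extl3*, which adds the first N-acetylglucosamine, had 18.9, 14.7 and 17.5 TPM and 22.6, 24.3 and 19.6 TPM (log2 fold change 0.36, limma adjusted p = 0.237). *Extl1*, a related N-acetylglucosamine transferase, rose from 21.7, 19.9 and 16.9 TPM to 50.2, 42.5 and 41.1 TPM, without overlap (log2 fold change 1.15, SE 0.203, adjusted p = 0.00208). *Extl2*, whose product can cap a phosphorylated linker, was at 10.7, 7.90 and 9.07 TPM and 19.4, 16.7 and 18.8 TPM (log2 fold change 0.93, SE 0.271, adjusted p = 0.0224). Without embryonic 2, embryonic 3 or adult 1 it was not called (adjusted p 0.0557 to 0.0674). Within the family, *Ext1* held 45.1% ± 1.44 (SD, n = 3) of the level at E16.5 and 19.9% ± 0.793 in the adult, and *Extl1* 8.45% ± 1.42 and 23.9% ± 0.222.

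Among the 9 genes of heparan modification that were tested, *Hs3st1* was higher and *Hs6st1*, *Hs6st2*, *Hs2st1* and *Hs3st3b1* were lower in the adult samples. The 5 called genes were 55.6% of the 9, beside 45.3% of all genes tested. The sulfotransferases for position 6 of glucosamine fell together. *Hs6st1* was at 61.5, 57.5 and 70.8 TPM in embryonic and 11.2, 14.97 and 18.1 TPM in adult samples (log2 fold change -2.04, SE 0.228, limma adjusted p = 0.000175). The predicted gene *Gm37335* on the opposite strand covers 8.07% of the exonic bases of *Hs6st1*. *Hs6st2* was at 38.8, 38.9 and 23.4 TPM and 3.89, 2.95 and 5.20 TPM (log2 fold change -2.78, SE 0.335, adjusted p = 0.000273). Neither range overlapped between stages, and the ratio of the pair did (exact permutation p = 0.2). *Hs6st3* was low throughout, at 1.60, 1.79 and 0.223 TPM in embryonic samples and listed at 0 in all adult samples. Summed over the 3 genes, the level was 98.2 ± 3.77 TPM (SD, n = 3) at E16.5 and 18.8 ± 4.18 TPM in the adult.

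*Hs3st1*, a sulfotransferase for position 3 known for making the antithrombin-binding motif, was at 5.90, 4.70 and 11.7 TPM in embryonic and 17.1, 50.1 and 58.2 TPM in adult samples. It was higher in every adult sample, with adult 1 the lowest of them (log2 fold change 2.26, SE 0.491, limma adjusted p = 0.0058). The other genes for position 3 were lower or not called. *Hs3st3b1* was at 7.17 to 15.7 TPM in embryonic and 2.79 to 5.24 TPM in adult samples (log2 fold change -1.28, SE 0.407, adjusted p = 0.031), a call that was lost without embryonic 2, embryonic 3, adult 1 or adult 3 (adjusted p 0.0608 to 0.12). *Hs3st3a1* was at 4.74, 2.52 and 2.13 TPM and 0, 2.44 and 0 TPM, and the difference did not pass (limma adjusted p = 0.0928), though it did without adult 2 (adjusted p = 0.0234). These neighbours on chromosome 11 share 774 bases at up to 97.7% identity, 19.6% of the *Hs3st3a1* transcript, so short single-end reads could be assigned to either, and their separate values are uncertain. On the opposite strand *F930015N05Rik* also covers 32.9% of the exonic bases of *Hs3st3a1*.

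The enzymes that prepare heparan for sulfation showed no called difference. *Glce*, the epimerase of heparan, was the most abundant of the modification genes over all samples, at 54.3, 45.8 and 52.9 TPM and 77.4, 58.5 and 61.8 TPM (log2 fold change 0.36, limma adjusted p = 0.121). *Ndst1*, which exchanges acetyl for sulfate on glucosamine, was at 41.5, 34.5 and 36.1 TPM and 37.7, 52.4 and 64.5 TPM (log2 fold change 0.42, adjusted p = 0.151, and adjusted p = 0.0364 without adult 1). Its paralog *Ndst2* was at 13.5 to 18.8 TPM in embryonic and 13.4 to 31.2 TPM in adult samples (adjusted p = 0.401), and *Ndst3* and *Ndst4* stayed under 1 TPM in each sample. *Hs2st1*, the sulfotransferase for position 2 of iduronic acid, was at 29.1 to 31.01 TPM in embryonic and 14.00 to 16.7 TPM in adult samples and fell (log2 fold change -0.89, SE 0.215, adjusted p = 0.00951).

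The endosulfatases remove 6-O-sulfates from finished heparan chains at the cell surface, and *Sulf2* was called while *Sulf1* was not. *Sulf2* was at 391, 397 and 372 TPM in embryonic and 50.9, 49.9 and 47.1 TPM in adult samples. The embryonic mean was 7.84 times the adult mean, the largest fall among the 45 genes on the log2(TPM + 1) scale (log2 fold change -2.95, SE 0.119, limma adjusted p = 8.29e-07). *Sulf1* was at 166, 170.0 and 171 TPM and 168, 143 and 148 TPM, with overlapping ranges (log2 fold change -0.15, SE 0.122, adjusted p = 0.35). *Sulf1* thus stood at 0.426, 0.429 and 0.462 of *Sulf2* in the embryonic samples and exceeded it by 3.25, 2.83 and 3.10 times in the adult samples, comparing TPM + 1. *Ncoa3* on the opposite strand covers 2.62% of the exonic bases of *Sulf2*, and it was higher in the adult samples (log2 fold change 1.46, adjusted p = 0.00017).

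**Figure D3:**
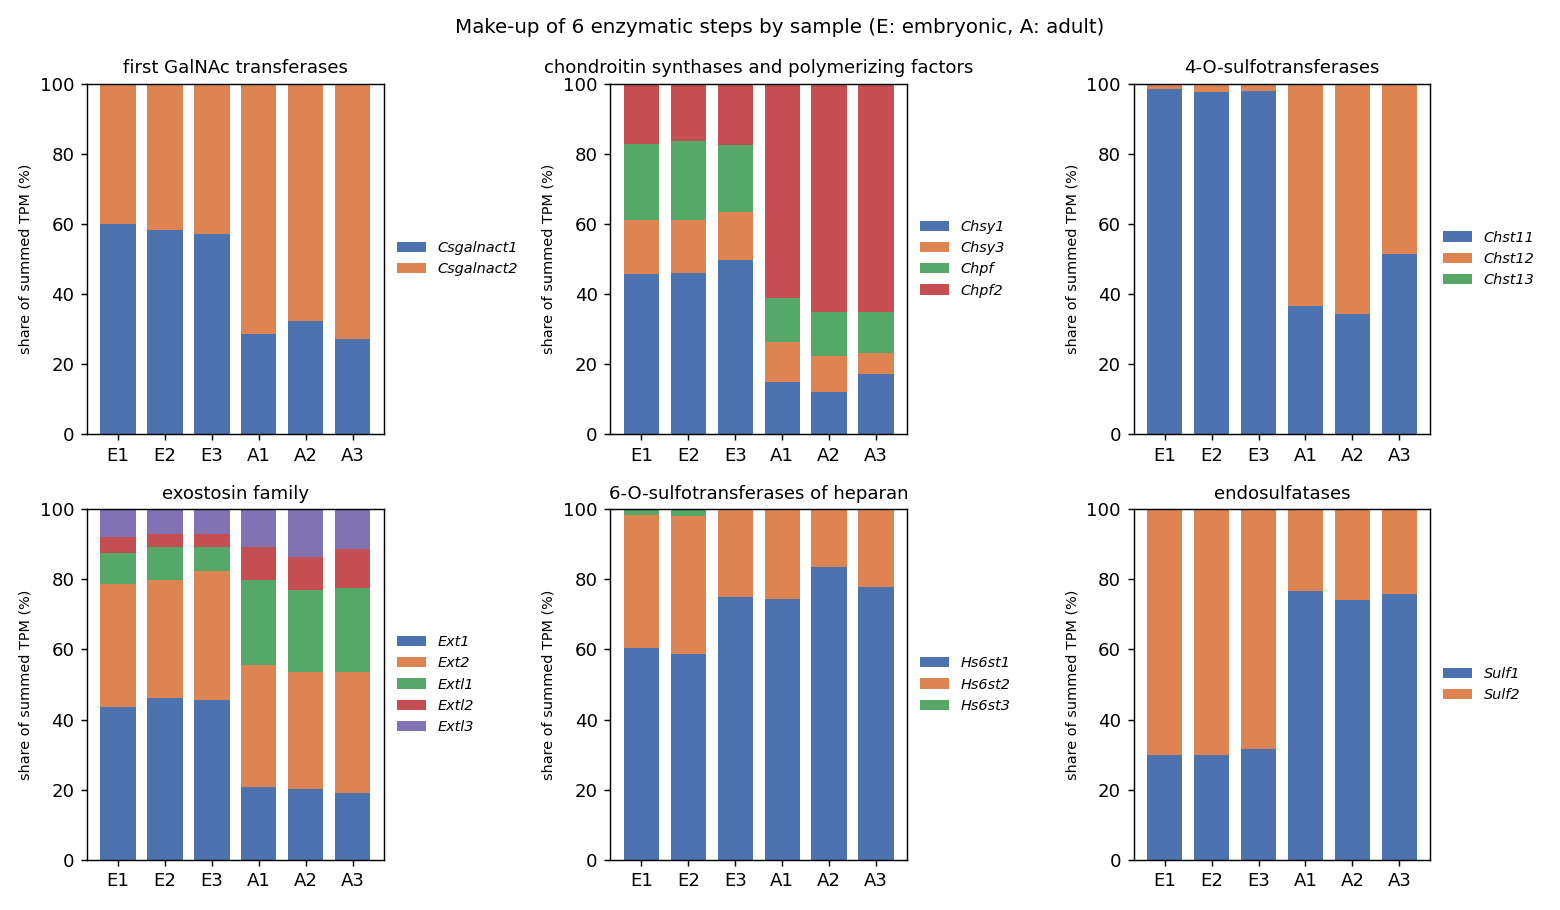
Share of each gene in the summed TPM of its enzymatic step or, for the exostosins, its family, in percent, for 6 such groups and each of 3 embryonic (E) and 3 adult (A) samples as stacked bars. *Chst12* went from 1.96% to 59.3% of the summed *Chst11*, *Chst12* and *Chst13* level, *Chpf2* from 16.95% to 63.8% of the chondroitin polymerases and *Sulf2* from 69.6% to 24.4% of the endosulfatases, each as stage means.

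Enzymes of one step or of related steps were set against each other within each sample in 15 ratios. The related steps were those of *Extl2* and *Extl3*, and 4-O against 6-O sulfation of chondroitin. All ratios were computed from TPM + 1. A rescaling can therefore still move them, and after quantile normalization 10 of them separated the stages. Without that normalization, in 11 of them all adult values lay on one side of all embryonic values, where no share over other gene pairs was computed, and 56.5% of single genes separated the stages in this way. Each of the 11 ratios reached the exact two-sided permutation p of 0.1 that is the smallest possible with 3 against 3 samples (Benjamini-Hochberg adjusted over the 15 ratios, 0.136), so the design cannot take any of them under 0.05. The log2 differences of these ratios were -5.81 for *Chst11* to *Chst12*, 2.80 for *Sulf1* to *Sulf2*, -2.65 for *Chpf* to *Chpf2*, -1.73 for *Csgalnact1* to *Csgalnact2*, 1.45 for *Xylt1* to *Xylt2*, -1.12 for *Ext1* to *Ext2* and under 1 in size for the others. The *Papss2* to *Papss1*, *Ndst1* to *Ndst2*, *Hs6st1* to *Hs6st2* and *Hs3st3a1* to *Hs3st3b1* ratios overlapped between stages (p = 0.2 to 0.8, exact permutation).

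**Figure D4:**
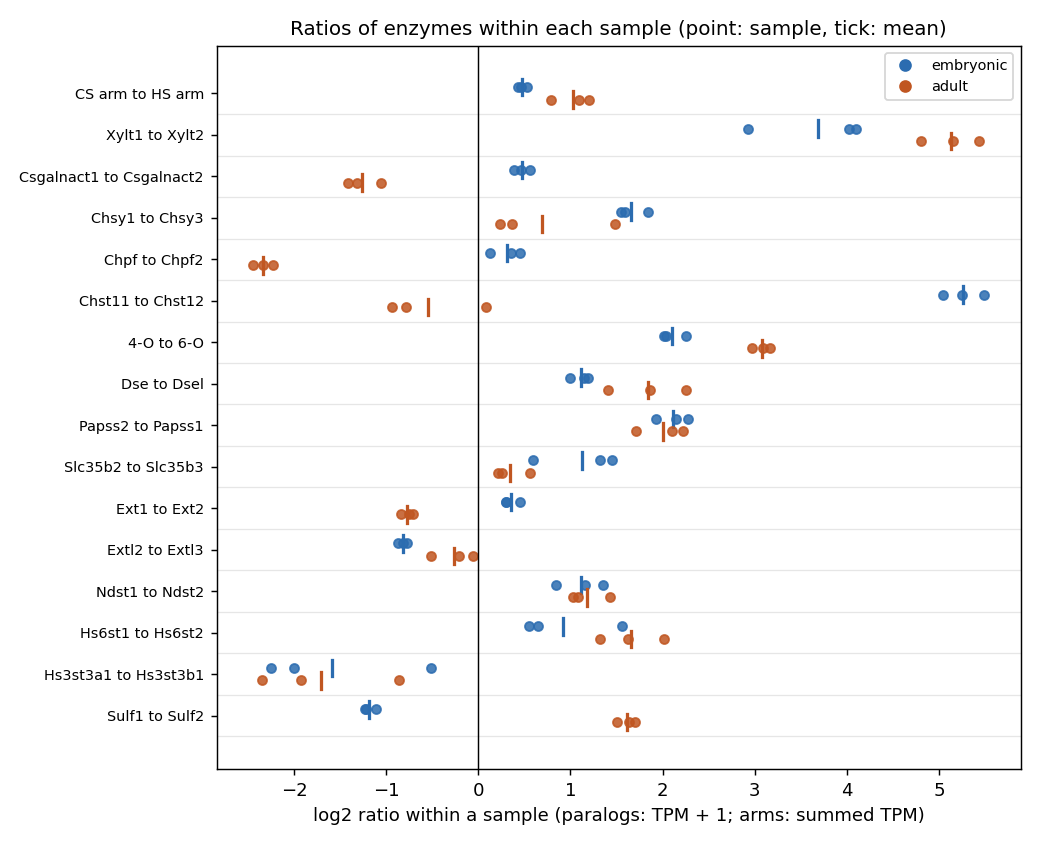
Log2 ratios within each sample, from TPM + 1 for enzymes of one step or of related steps and from summed TPM for the arms, with a tick at each stage mean. *Chst11* to *Chst12* moved from a mean of 5.26 to -0.55 and *Sulf1* to *Sulf2* from -1.19 to 1.61, whereas *Papss2* to *Papss1* kept overlapping values (2.11 and 2.01).

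The 16 genes that elongate and modify chondroitin and dermatan were compared with the 17 genes that elongate and modify heparan. The chondroitin genes summed to 682, 667 and 690 TPM in the embryonic samples and to 827, 934 and 742 TPM in the adult samples. The heparan genes summed to 504, 462 and 499 TPM and to 387, 407 and 430.0 TPM. The ratio of chondroitin to heparan genes was 1.35, 1.44 and 1.38 at E16.5 and 2.14, 2.29 and 1.73 in the adult, a log2 difference of 0.55 (exact permutation p = 0.1). Without *Chst12* the log2 difference was 0.27, and with the endosulfatases counted among the heparan genes it was 1.07. In all these versions the stages did not overlap.

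The chains are carried by core proteins, and these were examined from lists chosen by function with earlier results of these data known. Of 13 heparan sulfate proteoglycan cores tested, 2 were higher and 8 lower in adult samples, against 23.9% and 21.4% of all genes. Their median was -1.67 on the log2 scale, beside 0.16 over all genes. *Gpc3*, a glypican anchored to the membrane, was at 878, 774 and 902 TPM in embryonic and 2.81, 1.13 and 3.81 TPM in adult samples (log2 fold change -7.97, limma adjusted p = 3.85e-07). *Col18a1*, a basement membrane collagen with heparan chains, was at 139, 94.4 and 136 TPM and 23.0, 21.7 and 33.4 TPM (log2 fold change -2.20, adjusted p = 0.000116). The syndecan *Sdc4* had the highest mean of these cores and rose from 439, 482 and 488 TPM to 1395, 944 and 939.8 TPM (log2 fold change 1.19, adjusted p = 0.000593).

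Of 16 chondroitin and dermatan sulfate cores tested, 3 were higher and 7 lower (median -0.09), against 23.9% and 21.4% of all genes. The higher count was 5 without adult 1 and 5 after rescaling without the 20 highest genes. *Dcn*, which encodes decorin and carries a single chondroitin or dermatan chain, had 217, 241 and 326 TPM in embryonic and 6348, 5026 and 5549 TPM in adult samples (log2 fold change 4.44, limma adjusted p = 5.8e-07). *Epyc*, another small leucine-rich proteoglycan, fell from 201, 211 and 221 TPM to 2.58, 0 and 5.04 TPM (log2 fold change -6.25, adjusted p = 5.43e-05). *Srgn*, the proteoglycan of secretory granules in blood cells, was at 1.83, 13.6 and 2.01 TPM and at 199.8, 272 and 306 TPM (log2 fold change 5.68, adjusted p = 9.33e-05). The summed level of the leukocyte markers was also higher in each adult sample, at 189, 19.6 and 114 TPM. Among them *Cd68* was at 4.22, 5.87 and 12.6 TPM in embryonic and 33.3, 17.2 and 27.5 TPM in adult samples (log2 fold change 1.73, limma adjusted p = 0.00967). *S100a8* and *S100a9* were also called higher but were at 0 in adult 2. *Lyz2* and *Cd79a* did not pass, and 4 markers were too low to be tested. The part of leukocytes in the *Srgn* difference was not tested.

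**Figure D5:**
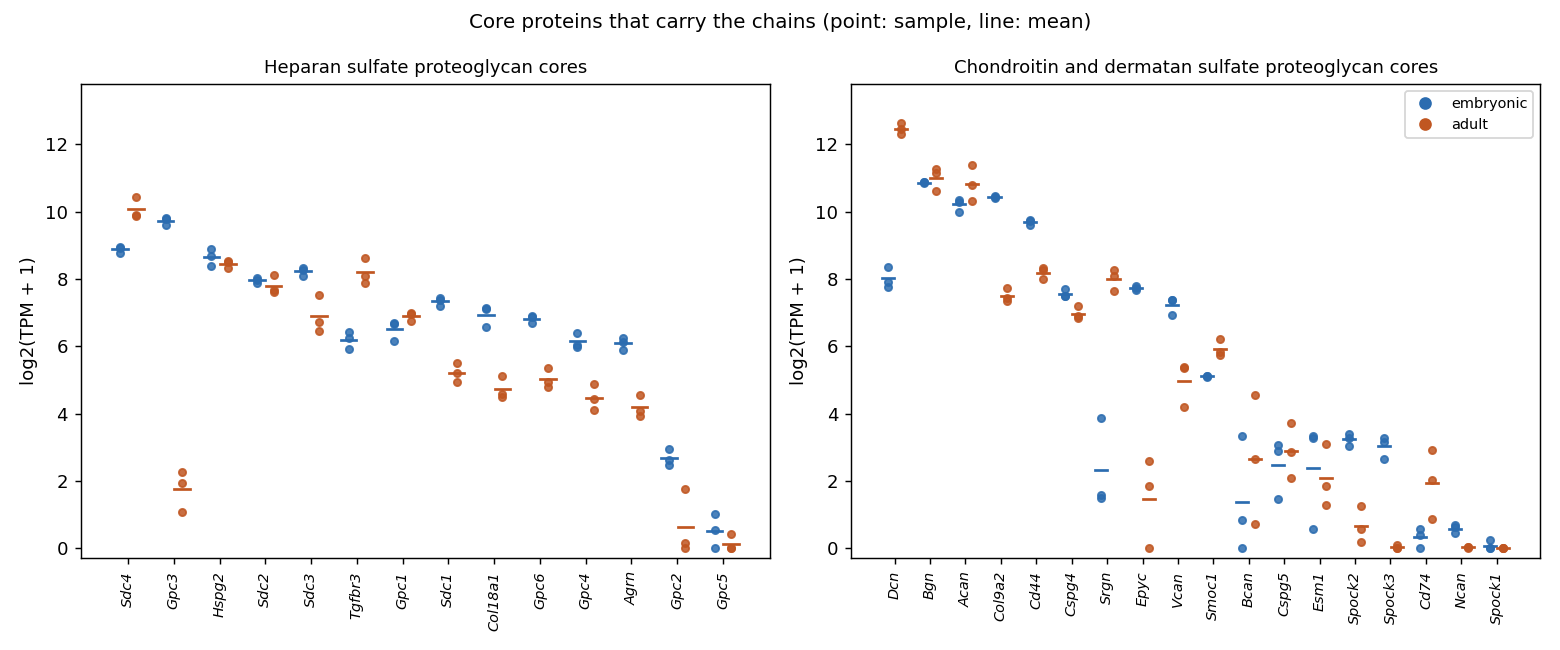
Level of the core proteins in each sample as log2(TPM + 1), heparan sulfate cores on the left and chondroitin and dermatan sulfate cores on the right, with 3 embryonic samples in blue, 3 adult samples in orange and lines at the stage means. *Gpc3* lay at 774 to 902 TPM in embryonic and 1.13 to 3.81 TPM in adult samples, and *Dcn* at 217 to 326 TPM and 5026 to 6348 TPM.

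The pathways around the enzymes were described in the same way. Of 22 further genes of nucleotide sugar and sulfate supply, 9 were higher and 2 lower (median 0.31), and the 11 called genes (50%) lay near the 45.3% of all genes. The lower count was 4 with median-of-ratios scaling and 1 without a filter, without trend, without adult 1 or without any one embryonic sample. *Uap1l1*, related to the pyrophosphorylase that makes UDP-N-acetylhexosamines, rose from 6.92, 10.7 and 4.26 TPM to 106, 72.01 and 86.5 TPM (log2 fold change 3.49, limma adjusted p = 5.78e-05), and *Gfpt2*, of the hexosamine pathway, had the highest mean with 201 to 278 TPM and 195 to 321 TPM, without a called difference (adjusted p = 0.54). *Slc26a1*, a sulfate transporter related to *Slc26a2*, had 0, 1.53 and 0.066 TPM in embryonic and 3.72, 3.27 and 3.22 TPM in adult samples (log2 fold change 1.66, adjusted p = 0.029).

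In the keratan sulfate list 3 of 10 tested genes were higher and 1 lower (median 0.45), and the 4 called genes (40%) did not exceed the 45.3% of all genes. The lower count was 2 without adult 3. The galactosyltransferase gene *B4galt1* was at 132, 126 and 138 TPM in embryonic and 37.3, 25.5 and 21.5 TPM in adult samples (log2 fold change -2.23, limma adjusted p = 7.04e-05). The keratan sulfotransferase gene *Chst5* rose from 3.70, 1.19 and 2.90 TPM to 7.83, 31.2 and 26.1 TPM (log2 fold change 2.53, adjusted p = 0.00603). Lysosomal genes that break down sulfated chains were higher in 9 of 15 and lower in 1 (median 0.66), against 23.9% and 21.4% of all genes. The 9 higher genes became 5 without embryonic 1, embryonic 2 or adult 3, 4 without adult 1 and 5 with median-of-ratios scaling, and the lower count was 2 without adult 3 or after quantile normalization. *Sgsh*, the heparan N-sulfatase, was at 4.72, 3.05 and 12.8 TPM and 30.5, 23.5 and 19.3 TPM (log2 fold change 1.87, adjusted p = 0.0104). *Ids*, which removes the 2-O-sulfate of iduronic acid, was at 21.5, 26.5 and 15.1 TPM and 42.1, 77.3 and 50.5 TPM (log2 fold change 1.38, adjusted p = 0.00484), and *Hexa*, the most abundant of the list, at 81.2, 87.0 and 77.2 TPM and 127, 112 and 152 TPM (log2 fold change 0.66, adjusted p = 0.00786).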

How the data were processed

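In the study's methods, RNA of the sorted cells was primed at random and at poly(A) tails with a Nugen Ovation V2 kit. That kit does not mark strand, and the cDNA was made into libraries with a Kapa kit for single-end sequencing. The labels name a Kapa mRNA-Seq kit instead, so the kit, and with it priming and strand, is not settled here. The labels name RSEM and GRCm38, and the authors estimated TPM with RSEM on RefSeq annotations of that build and deposited log2(TPM + 1) per Ensembl gene. The version of RSEM is not given in the sources used here. All 6 columns were used, each of which adds up to 1000000 TPM. TPM keeps no depth, so precision rests on the spread between samples, and the highest 20 genes held 10.7% to 17.7% of all TPM.

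Symbols and positions are from GENCODE M21 of GRCm38, and 21902 of 22032 identifiers had a symbol. Genes averaging 1 TPM or more were tested with limma 3.58.1 in R 4.3.3 (eBayes with trend, stage as the one term, pseudocount 1, Benjamini-Hochberg over 13125 genes, threshold 0.05). EBSeq, named in the methods, needs counts and was not used here. Ratios within a sample, including that of summed chondroitin to summed heparan genes, used exact two-sided permutation tests. Sums were not tested on their own. The limma step was tested on simulated data.

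The genes and lists were chosen with earlier results of these data known. Values in every sample are given, within each role, for up to 3 called genes of largest change, the 2 of highest mean and members of separated ratios, and from each other list for the 2 called genes of largest change and the highest. Overlaps of exons and of transcripts (BLAST+ 2.17.0, at least 95% identity over 50 bases or more) were listed. Alternatives were other pseudocounts, filters, scalings and eBayes settings, a stricter threshold, a replicate block and each sample left out. Python 3.11.15 was used with numpy 2.4.6, pandas 2.3.3, scipy 1.17.1 and, for figures, matplotlib 3.10.9.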

Additional observations from a re-analysis of the deposited data

How the results depend on the processing

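No called gene among the 45 changed sign in the 16 alternatives. Of the 24 called genes, 17 (7 higher, 10 lower) kept their call in every alternative and 19 in every one at a threshold of 0.05, while 9 of the 21 genes not called passed in at least 1. The median log2 fold change of the 45 genes (-0.15) has no settled sign. It was 0.050 for genes averaging 5 TPM or more, -0.057 after quantile normalization, -0.29 with median-of-ratios scaling, -0.052 without the 20 highest genes and -0.18 to 0.11 with each sample left out in turn, above 0 without embryonic 3 (0.016) or adult 3 (0.11). Genes called over the whole matrix numbered 5949, and 3718 at an adjusted p under 0.01. The chondroitin to heparan log2 difference of 0.55 was 0.46 to 0.67 with 1 sample left out, and in versions chosen after seeing the data 1.07 with *Sulf1* and *Sulf2* and 0.27 without *Chst12*. Differences that did not pass changed sign for *Xylt2* (-0.45 to 0.016, the latter without embryonic 3) and *Chst14* (-0.77 to 0.24, the latter without adult 3), and so did the ratios *Papss2* to *Papss1* (0.10 after quantile normalization, -0.21 to 0.043 with 1 sample left out, the latter without adult 3), *Ndst1* to *Ndst2* (-0.075 without embryonic 2, -0.06 without adult 1, up to 0.18) and *Hs3st3a1* to *Hs3st3b1* (0.42 without embryonic 1, 0.20 without adult 1, down to -0.55). Scaling brought calls for *Papss1* (adjusted p = 0.0285 after quantile normalization, 0.0245 with median-of-ratios scaling), *Ext2* (0.033 with the latter) and, leaving out the 20 highest genes, *B3gat3* (0.0482), *Dse* (0.026) and *Impad1* (0.0395). Beyond left-out samples, calls were lost for *B3galt6* (adjusted p = 0.0519 without a filter, 0.0576 after quantile normalization), *Extl2* (0.0551 after quantile normalization), *Papss2* (0.0532 without trend) and *Hs3st3b1* (0.0577 without a filter). The causes were not tested. Replicate numbers did not pair the samples, since same-numbered samples deviated with correlations of -0.009, -0.017 and -0.022 across genes. With the replicate block 5430 genes were called, and 9 genes of the 45 higher and 14 lower, *B3galt6* losing its call (adjusted p = 0.0593). With 3 samples per stage and no depth in TPM, low genes are limited most.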
